A study of Homo sapiens with 44 samples.

Results

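Chromatin accessibility in Ccd18-Co fibroblasts given IL-13 was compared directly with that in the same line given IL-1β, in all peaks of the deposited table. The groups came from the labels, with 4 libraries for IL-13 and 4 for IL-1β, 8 of the 44 libraries of the series. The assay was ATAC-seq, in which a transposase inserts sequencing adapters into accessible DNA, so that the coverage of a region reports how open its chromatin is. Ccd18-Co is an established fibroblast line from human colon, and all groups were this single line, grown in serum-free medium with the cytokine. The doses differed, with IL-13 at 10 ng/ml and IL-1β at 0.1 ng/ml, so cytokine and dose cannot be told apart. The IL-1β dose is that of the labels, and some legends of the study name a lower one. Unstimulated cells (4 libraries, serum-free medium without cytokine) serve below only to show where the resting level lay. Nothing in the labels says that the 4 libraries of a group came from separate cultures, so the p-values measure the spread between these libraries, which may be technical.

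IL-13 is a type 2 cytokine that binds a receptor shared with IL-4 and acts through JAK kinases and the transcription factor STAT6, which is known in fibroblasts for eotaxins, periostin and the feedback inhibitors SOCS1 and CISH. IL-1β binds the IL-1 receptor and acts through MYD88 and IRAK kinases on NF-κB and, through stress-activated kinases, on AP-1 (dimers of FOS and JUN proteins). In fibroblasts it is known as an inducer of neutrophil chemokines, prostaglandin synthesis and matrix-degrading enzymes. TEAD factors act with the coactivators YAP and TAZ and are known for matrix and contractile genes of fibroblasts. The direct comparison shows how far the accessible regions of a type 2 and of an inflammatory stimulus differ in the same cells.

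The sequences below show the strings held by peaks with large differences in each direction, some of them (RMI2, COL7A1 and IL33) chosen after their values were seen. They are stretches of hg38, plus strand, 5′ to 3′, each placed within a deposited peak where it holds most matches of the string that the comparison turns on. Capitals mark matches on either strand to 4 strings. The STAT6-type string was TTCNNNNGAA. The AP-1 string was TGANTCA, where N is any base. TEAD factors were represented by the letters GGAATG on either strand. NF-κB was represented by the consensus GGGRNNYYCC, where R is A or G and Y is C or T. NF-κB sites of any other spelling were neither marked nor counted, in these stretches or in the shares below. A match is a description of letters and not of binding. The first 4 come from peaks higher with IL-13. The LINC02458 and IRF2 peaks were low in unstimulated and IL-1β libraries and hold STAT6-type strings. The LOC102724357 stretch holds 3 TEAD strings and the RMI2 stretch 2. The LOC102724357 peak also holds 1 STAT6-type match outside the stretch shown. The whole IRF2 peak holds 1 STAT6-type match and 4 NF-κB matches, the latter outside the stretch shown.
LINC02458, chr12:89179285-89179434: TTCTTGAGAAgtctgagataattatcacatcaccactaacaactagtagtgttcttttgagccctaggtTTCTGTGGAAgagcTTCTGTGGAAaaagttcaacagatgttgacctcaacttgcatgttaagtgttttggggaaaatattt
IRF2, chr4:184547487-184547636: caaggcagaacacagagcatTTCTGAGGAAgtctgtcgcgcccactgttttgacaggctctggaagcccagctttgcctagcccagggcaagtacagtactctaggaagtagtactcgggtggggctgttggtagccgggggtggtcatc
LOC102724357, chr6:169073385-169073534: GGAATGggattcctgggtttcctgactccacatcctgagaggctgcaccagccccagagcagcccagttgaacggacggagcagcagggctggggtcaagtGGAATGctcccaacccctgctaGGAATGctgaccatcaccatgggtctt
RMI2, near SOCS1, chr16:11250607-11250756: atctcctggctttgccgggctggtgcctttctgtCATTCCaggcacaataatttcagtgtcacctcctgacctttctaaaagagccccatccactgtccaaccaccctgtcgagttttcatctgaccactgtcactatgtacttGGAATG

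The other 6 come from peaks higher with IL-1β, all with at least 1 AP-1 string. They do not stand for all such peaks. Of the 10 peaks with the largest difference towards IL-1β, 5 hold an AP-1 string. The exonic CXCL8 peak and the PTGS2 peak, with the largest differences, hold 0. The COL7A1 and IL33 stretches lie in peaks classed as promoters, and the CXCL8 stretch ends just before the annotated start of the gene.
ETV4, chr17:43608520-43608669: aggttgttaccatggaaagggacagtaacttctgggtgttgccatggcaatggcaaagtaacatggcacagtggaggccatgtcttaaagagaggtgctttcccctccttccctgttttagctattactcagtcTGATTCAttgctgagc
NAMPT, chr7:106345542-106345691: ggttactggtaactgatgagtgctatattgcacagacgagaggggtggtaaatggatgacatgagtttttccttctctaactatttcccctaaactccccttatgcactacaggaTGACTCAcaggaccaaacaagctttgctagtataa
LINC00477, chr12:24719573-24719722: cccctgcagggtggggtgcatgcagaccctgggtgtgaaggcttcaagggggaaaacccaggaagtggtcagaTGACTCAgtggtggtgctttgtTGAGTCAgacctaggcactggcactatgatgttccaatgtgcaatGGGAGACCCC
COL7A1, chr3:48595594-48595743: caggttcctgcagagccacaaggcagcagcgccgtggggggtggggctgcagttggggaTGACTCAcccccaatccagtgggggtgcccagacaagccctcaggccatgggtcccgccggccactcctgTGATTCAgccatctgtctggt
IL33, chr9:6214543-6214692: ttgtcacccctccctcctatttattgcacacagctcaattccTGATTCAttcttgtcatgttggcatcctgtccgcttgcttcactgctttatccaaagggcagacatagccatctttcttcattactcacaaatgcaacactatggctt
CXCL8, chr4:73740369-73740518: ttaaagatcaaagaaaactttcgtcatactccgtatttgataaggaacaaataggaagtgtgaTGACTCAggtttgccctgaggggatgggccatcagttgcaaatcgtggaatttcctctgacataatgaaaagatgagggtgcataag

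Accessibility differed between the cytokines in both directions. Of 407176 tested peaks, 33657 (8.27%) differed between the groups, 15160 (3.72%) higher with IL-13 and 18497 (4.54%) higher with IL-1β, by limma with Benjamini-Hochberg adjustment at an adjusted p under 0.05. Which direction had more calls turned under a correction for GC content, with 17493 higher with IL-13 and 14907 higher with IL-1β. All levels are coverage per Mb of the library's total, and all differences are log2(level + 0.5) with IL-13 minus with IL-1β, a scale that understates low peaks. The median difference was -0.08 over all tested peaks, 1.06 over those higher with IL-13 and -1.17 over those higher with IL-1β. Differences of at least 1 were called in 8524 and 12933 peaks, at least 2 in 696 and 866, and at least 3 in 30 and 45, for IL-13 and IL-1β in that order. In 27545 called peaks (81.8%) the 4 libraries of the higher group all lay above the 4 of the other, against 11.1% of all tested peaks in either direction.

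**Figure D1:**
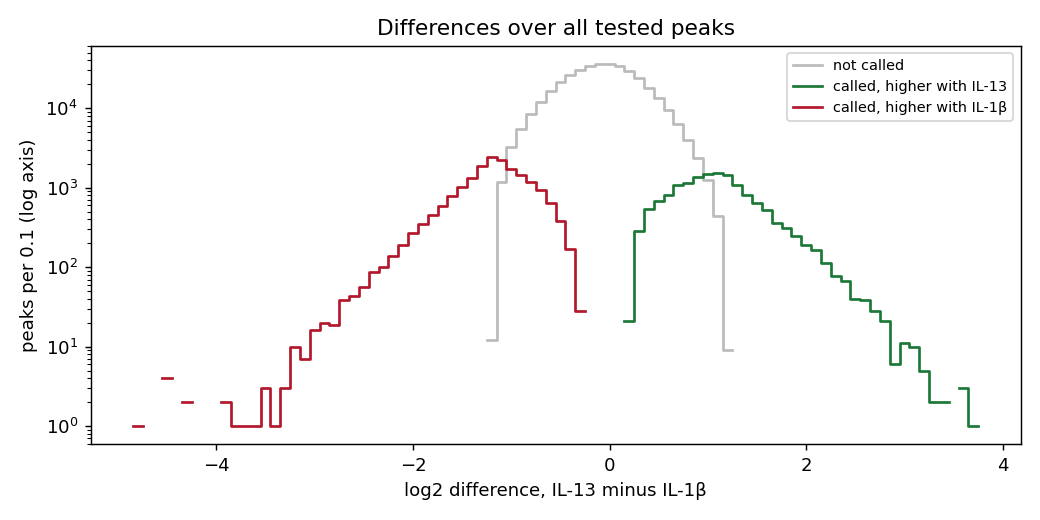
Number of tested peaks per 0.1 of log2 difference (IL-13 minus IL-1β, x axis) on a log y axis, for peaks not called (grey), called higher with IL-13 (green) and called higher with IL-1β (red). Called peaks run from -4.80 to 3.66, and the far tail is longer on the side of IL-1β.

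Depth overlapped between the groups. Total coverage in peaks was 401 ± 180 Mb with IL-13 and 435 ± 84.6 Mb with IL-1β (mean ± SD, n = 4, exact permutation test p = 0.771, two-sided). Peaks without any coverage made up 11.1 ± 5.37% of the table with IL-13 and 6.49 ± 2.84% with IL-1β (exact permutation p = 0.2). The most covered 1% of peaks took up 14.9 ± 0.454% of all coverage with IL-13 and 13.3 ± 0.539% with IL-1β, with no overlap (exact permutation p = 0.0286, the smallest that 4 against 4 allow, and 0.114 after Benjamini-Hochberg adjustment over 4 measures), and its part in the differences was not tested. Of 10 fibroblast markers 7 had a tested promoter peak, with LUM near 0 (0.302 with IL-13 and 0.335 with IL-1β) and summed levels of 87.2 to 104 with IL-13 and 60.6 to 73.7 with IL-1β, of which COL1A1, COL1A2 and COL6A3 were called higher with IL-13. Of markers of other cell types, 1 of 6 epithelial markers was measured, at 0 to 1.26, and the leukocyte markers PTPRC, CD3E and SPI1 had no tested promoter peak, while the 2 measured (LCP1 and CD79A) summed to 4.15 to 7.66. Summed levels were 4.03 to 11.7 for 6 of 6 endothelial markers (ERG called higher with IL-13), 14.7 to 23.9 for 3 of 5 markers of glia and neurons (0 called), and 18.4 to 32.6 for 4 of 5 smooth muscle markers, of which MYH11 and CNN1 were called higher with IL-13 and SMTN higher with IL-1β. Single promoters of these lists, such as CNN1 (14.8 with IL-13) and ELAVL3 (10.4 with IL-13), were about as open as the fibroblast marker COL1A2 (14.0), so these peaks do not set the cell types apart. In bulk material, fewer cells of a state and less opening per cell cannot be told apart.

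The 10 peaks with the largest difference towards IL-13, at most 1 for each deposited gene, all had their highest mean of the 11 groups with IL-13. Their order began with LOC102724357, WASF3, NCKAP5-AS2, PLB1, CNGA3 and LOC102723833, with differences from 3.66 to 3.36. In 8 of the 10, IL-1β also gave the lowest mean of the 11 groups, so that the resting level lay between. The distal peak named for LOC102724357 (chr6:169073216-169073716, intergenic, 180.6 kb from the start of THBS2) was at 34.5, 32.9, 27.5 and 30.2 with IL-13. The 4 IL-1β libraries were at 1.92, 0.512, 3.46 and 3.58, and the unstimulated mean was 11.2. The groups lay far apart (difference 3.66, SE 0.20, limma adjusted p = 5.47e-46), and against unstimulated cells IL-13 raised it by 1.44 while IL-1β lowered it by 2.22 on the log2 scale.

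The WASF3 peak (chr13:26423526-26424026, intergenic, 133.9 kb upstream of WASF3, a regulator of actin assembly) was at 23.2, 16.8, 16.7 and 15.9 with IL-13. With IL-1β it was at 1.55, 0.781, 0.952 and 0.768, and the unstimulated mean of 5.71 stood in between (difference 3.64, SE 0.25, limma adjusted p = 2.6e-33). The ADAMTS9-AS1 peak (chr3:64548185-64548685, in an intron of ADAMTS9, a secreted metalloproteinase) was the most open of the 10. It was at 46.7, 32.0, 43.5 and 52.3 with IL-13 and at 4.26, 4.82, 4.20 and 3.03 with IL-1β, against 25.1 at rest (difference 3.26, SE 0.15, limma adjusted p = 1.4e-58). From rest, IL-1β lowered it by 2.48 and IL-13 raised it by 0.78.

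The other 2 of the 10 were peaks that IL-13 opened from near nothing. The LINC02458 peak (chr12:89179134-89179634, in an intron of that long noncoding RNA, 173.1 kb from the start of DUSP6) was at 8.43, 8.21, 10.4 and 7.98 with IL-13. It was at 0.322, 0.428, 0 and 1.70 with IL-1β and at 0.687 on average at rest, and it holds 3 STAT6-type strings, shown above (difference 3.27, SE 0.40, limma adjusted p = 2.76e-12). The IRF2 peak (chr4:184547311-184547811, intergenic, 73.0 kb upstream of IRF2, an interferon regulatory factor) was at 21.6, 23.2, 21.9 and 24.2 with IL-13. It was at 1.24, 2.46, 1.72 and 3.04 with IL-1β and at 1.68 on average at rest (difference 3.20, SE 0.32, limma adjusted p = 1.8e-17). In neither of them did IL-1β differ from unstimulated cells at the threshold (differences -0.23 and 0.24, adjusted p = 0.90 and 0.86).

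Of the 10 peaks with the largest difference towards IL-1β, 7 had their highest mean of all 11 groups with IL-1β. In the other 3 (CXCL8, ADORA2A and SNORA70F) TNF gave the highest mean and IL-1β the next. All 10 were raised by IL-1β against unstimulated cells, and 2 of them, at PTGS2 and LOC105375401, were also lowered by IL-13. The peak 1.7 kb after the start of CXCL8, a neutrophil chemokine (chr4:73741958-73742458, classed exonic and centred on a UTR), was at 0, 0, 0 and 0.224 with IL-13, which is near single reads. It was at 14.3, 15.2, 17.8 and 12.2 with IL-1β and 0.32 on average at rest (difference -4.80, SE 0.38, limma adjusted p = 9.35e-26), and with most IL-13 values at 0 the size of that difference depends on the added 0.5. The promoter peak of CXCL8 (chr4:73740318-73740818) was at 0.969, 0.630, 0.454 and 0.452 with IL-13 and at 17.8, 13.1, 15.0 and 19.0 with IL-1β (difference -3.90, SE 0.30, limma adjusted p = 8.45e-28). It was at 2.27 at rest, so that IL-1β raised it by 2.60 and IL-13 lowered it by 1.30 on the log2 scale.

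PTGS2 encodes the inducible cyclooxygenase of prostaglandin synthesis. Its largest difference was in an intergenic peak 10.5 kb downstream of its start (chr1:186670181-186670681), at 0.966, 0.945, 1.73 and 1.43 with IL-13 and at 32.8, 40.0, 40.6 and 42.3 with IL-1β. The resting level was 9.17, and the cytokines moved it in opposite directions, by 2.06 upward with IL-1β and by 2.44 downward with IL-13 (direct difference -4.50, SE 0.22, limma adjusted p = 1.62e-53). The promoter peak of PTGS2 did not pass the test (difference -0.14, limma adjusted p = 0.646).

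The ETV4 peak (chr17:43608344-43608844) lies in an intron of DHX8, 29.0 kb upstream of ETV4, an ETS transcription factor. It was at 0, 0.424, 0.893 and 0.740 with IL-13 and at 18.0, 14.8, 17.9 and 20.5 with IL-1β, with 1.01 at rest (difference -4.27, SE 0.34, limma adjusted p = 2.22e-26). A peak 59.6 kb upstream of NAMPT, the rate-limiting enzyme of NAD salvage (chr7:106345366-106345866), was at 0.352, 1.56, 0 and 1.23 with IL-13 and at 13.7, 14.7, 10.5 and 15.1 with IL-1β (difference -3.64, SE 0.32, limma adjusted p = 2.85e-22). For both, the mean with IL-13 lay under the resting mean without passing the test against it (adjusted p = 0.57 and 0.097). The rest of the 10 were at CXCL2 (-3.54), LINC00477 (-3.48), ADORA2A, an adenosine receptor (-3.47), LOC105375401 (-3.43, in an intron of GNGT1 and 7.5 kb from the start of TFPI2), CSF3, which encodes G-CSF (-3.25), and SNORA70F (-3.25, in an intron of COBLL1).

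**Figure D2:**
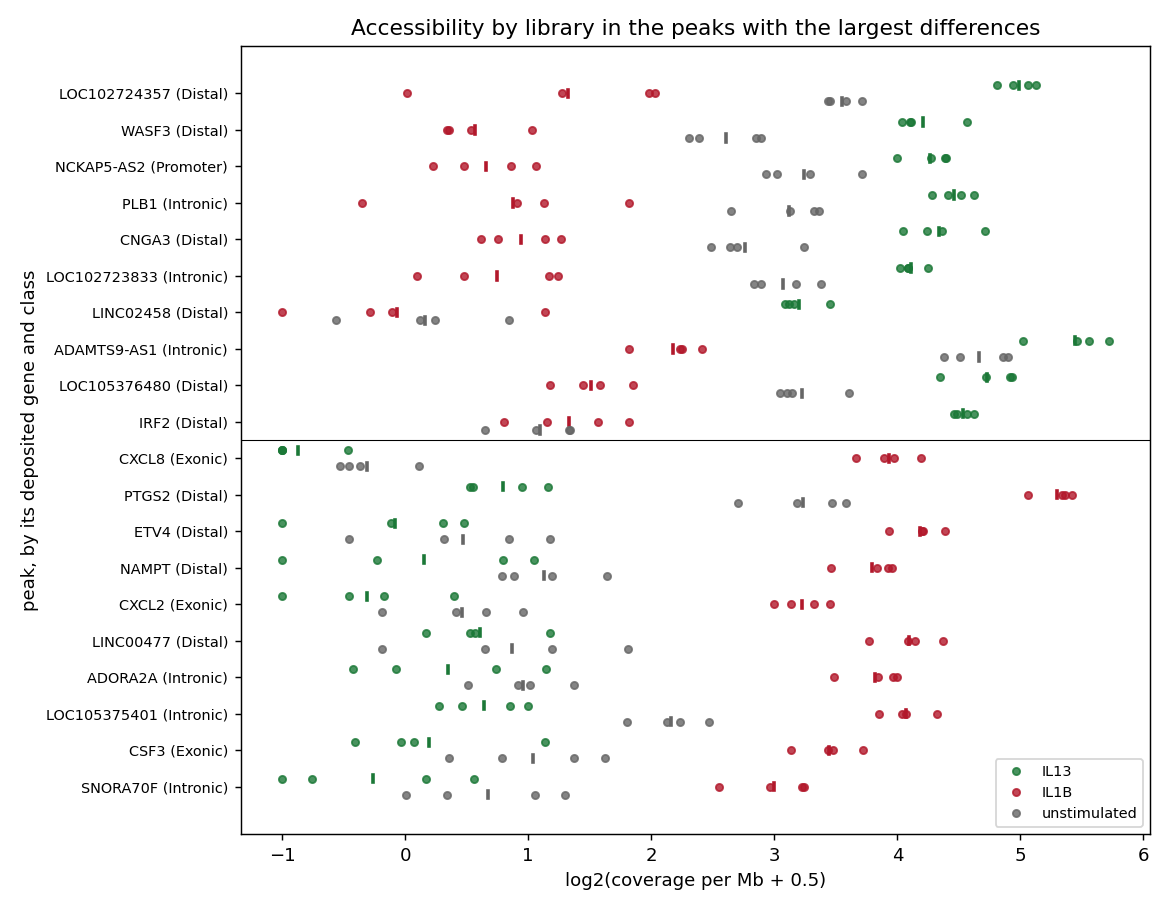
log2(coverage per Mb + 0.5) in each library (points) with the group mean (ticks) for IL-13 (green), IL-1β (red) and unstimulated cells (grey), in the 10 peaks with the largest difference towards IL-13 (above the line) and towards IL-1β (below). The peaks were chosen so that IL-13 and IL-1β points do not overlap within a peak. The LINC02458 and IRF2 peaks alone in the upper set have resting points among the IL-1β points.

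Against unstimulated cells, more of the peaks higher with IL-13 had been lowered by IL-1β than raised by IL-13. Of the 15160 peaks higher with IL-13, IL-1β lowered 5727 (37.8%) and IL-13 raised 2174 (14.3%), with 669 (4.41%) moved in opposite directions by both. Neither cytokine passed the test against unstimulated cells in 7928 (52.3%). Of the 18497 peaks higher with IL-1β, IL-1β raised 5292 (28.6%) and IL-13 lowered 2760 (14.9%), with 547 (2.96%) moved in opposite directions and 10992 (59.4%) called for neither. The median level in peaks higher with IL-13 was 7.56 with IL-13, 5.43 at rest and 3.09 with IL-1β. In peaks higher with IL-1β it was 1.77, 2.77 and 4.87 in that order of groups. Over all peaks, 1.61% were called for IL-13 and 3.5% for IL-1β against unstimulated cells, and these contrasts share the unstimulated libraries with each other.

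Among the 11 groups, IL-13 gave the highest mean in 51.7% of the peaks higher with IL-13 (9.00% of all tested peaks), and IL-1β the lowest in 57.5% (6.97% of all tested). IL-1β gave the highest mean in 44.1% of the peaks higher with IL-1β (10.6% of all tested). It gave one of the top 2 means in 76.1% of them, a share not computed over all tested peaks. IL-13 gave the lowest in 60.4% of the peaks higher with IL-1β (10.2% of all tested). Since the called peaks were chosen for the distance between these same groups, the shares describe where the other groups lay.

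Peaks higher with IL-1β had a smaller share of promoters, the deposited class around annotated starts, than peaks higher with IL-13. Promoters made up 7.1% of all tested peaks, 7.1% of those higher with IL-13 and 3.9% of those higher with IL-1β. Distal peaks made up 34.5%, 31.9% and 38.8%, and introns 51.7%, 54.1% and 52.9%, in the same order. Among the more open tested peaks (mean of at least 1 per Mb) promoters made up 12.8%, above the share in either direction. Within 5 kb of a peak higher with IL-13, 31.0% had another of the same direction and 10.4% of the opposite direction. For peaks higher with IL-1β these shares were 27.6% and 8.27%. Of all tested peaks, 11.1% had another peak higher with IL-13 within 5 kb and 12.1% another higher with IL-1β. Within 50 kb the same and opposite directions were closer, at 69.2% and 60.2% for IL-13 and 72.8% and 51.6% for IL-1β. Of all tested peaks, 49.9% had another peak higher with IL-13 within 50 kb and 55.7% another higher with IL-1β. The shares of the opposite direction lay near these.

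The strings in the 500-base peaks differed by direction. The AP-1 string was found in 58.4% of peaks higher with IL-1β, in 23.9% of those higher with IL-13 and in 25.7% of all tested peaks. Called peaks were more open than the rest, and among tested peaks with a mean of at least 1 per Mb the AP-1 share was 30.1%. Of peaks with an AP-1 string 10.3% were higher with IL-1β, against 2.54% of those without, and with 2 or more matches 18.8% were. The same order was seen within promoters, where the string was in 46.1% of those higher with IL-1β and in 13.5% of all. The NF-κB consensus was in 15.0% of peaks higher with IL-1β, in 10.4% of those higher with IL-13 and in 13.0% of all. Among tested peaks with a mean of at least 1 per Mb its share was 14.5%, close to that of all peaks higher with IL-1β, and it was in 25.8% of the 866 peaks higher with IL-1β by 2 or more.

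TEAD strings were in 43.6% of peaks higher with IL-13, in 27.4% of those higher with IL-1β and in 28.7% of all, rising to 52.0% of the 696 peaks higher with IL-13 by 2 or more. The STAT6-type string was in 18.7%, 12.8% and 14.4% in the same order, and in 26.4% of those 696. Among tested peaks with a mean of at least 1 per Mb the shares were 29.4% for TEAD and 13.1% for the STAT6-type string. Where IL-13 raised the peak and IL-1β was not called against unstimulated cells (1496 peaks), 30.6% held the STAT6-type string and 42.5% the TEAD string. Where IL-1β lowered the peak and IL-13 was not called (5050 peaks), 15.7% held the STAT6-type string and 47.1% the TEAD string. Where IL-13 lowered the peak and IL-1β was not called (2209 peaks), 64.3% held the AP-1 string and 8.51% the NF-κB consensus, against 60.2% and 23.4% where IL-1β raised it and IL-13 was not called (4741 peaks). The forkhead (FOX) string was in 12.8% of peaks higher with IL-13, 9.73% of those higher with IL-1β and 8.37% of all. Shares of the C/EBP string were 4.70%, 5.27% and 4.69%, and of the interferon response (ISRE) string 8.85%, 7.77% and 9.11%, in the same order. Mean GC content was 45.9%, 45.1% and 46.7% in the same order, and 49.5% among tested peaks with a mean of at least 1 per Mb. It was 42.2% in peaks higher with IL-13 by 2 or more and 43.3% in those higher with IL-1β by 2 or more. The part of GC content in the string shares was not tested.

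**Figure D3:**
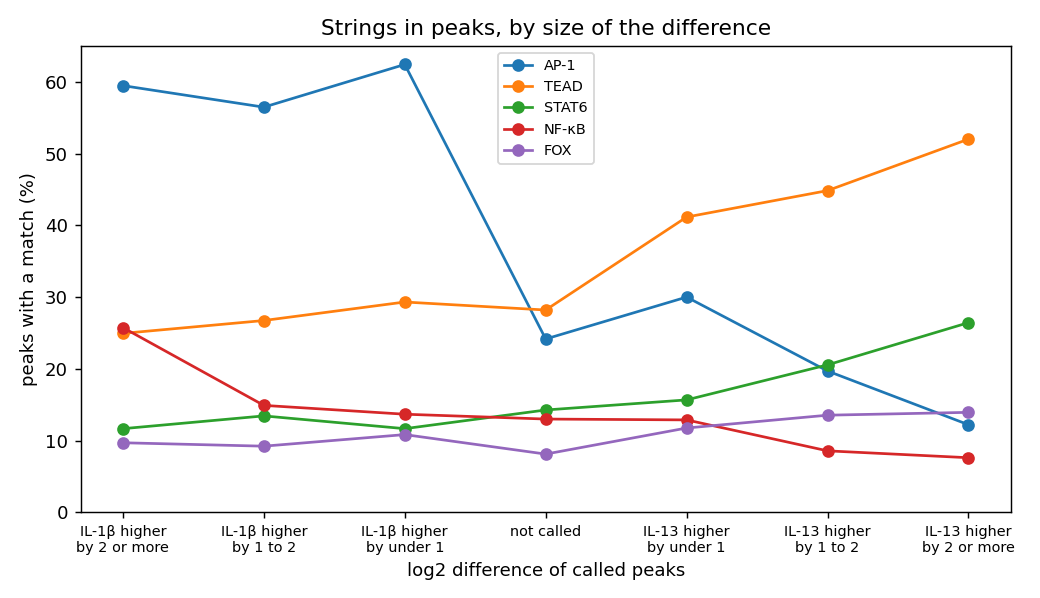
Percent of peaks with at least 1 match (y axis) to the AP-1, TEAD, STAT6-type, NF-κB and FOX strings, by the size and direction of the called log2 difference, with peaks not called in the middle. AP-1 is at 56.5% to 62.4% in all bins higher with IL-1β, 24.2% in peaks not called, and 30.0%, 19.7% and 12.2% in the bins higher with IL-13 by size, while from the IL-1β end to the IL-13 end TEAD goes from 24.9% to 52.0% and STAT6-type from 11.7% to 26.4%.

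Promoter peaks of named genes were read for 11 lists of 153 genes, of which 133 had a tested promoter peak. Of these, 21 were called higher with IL-13 and 17 higher with IL-1β. Over the promoter peaks of all 16765 genes, 826 (4.93%) were called higher with IL-13 and 485 (2.89%) higher with IL-1β, with a median difference of 0.02.

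Receptor signalling genes of IL-4 and IL-13 were read by all assigned peaks and by promoters. Over all assigned peaks, 22 of 359 (6.13%) were higher with IL-13 and 28 (7.80%) higher with IL-1β. The shares over all tested peaks were 3.72% and 4.54%, so both were raised here. The median difference was -0.04, against -0.08 over all tested peaks. Of 10 promoters measured, 5 were higher with IL-13 and 0 higher with IL-1β (1 at an unadjusted limma p under 0.05), with a median difference of 0.20. CISH, a feedback inhibitor of cytokine receptors, was at 66.2, 66.7, 58.1 and 67.5 with IL-13 and at 31.3, 28.0, 32.2 and 28.8 with IL-1β, against 35.4 at rest (difference 1.09, SE 0.10, limma adjusted p = 1.1e-20). SOCS1, which blocks JAK kinases, was at 20.0 ± 1.92 and 13.5 ± 1.41 (SD, n = 4, difference 0.55, limma adjusted p = 0.00641). The others were STAT6 (0.94), whose peak lay 1.3 kb upstream in an intron of LRP1, the receptor chain IL4R (0.50) and JAK2 (0.29). STAT6 differed through IL-1β, which lowered it by 1.11 against unstimulated cells, while IL-13 did not pass that test. All but CISH lost the call under at least 1 other processing, with the adjusted p reaching 0.552 for JAK2, 0.334 for IL4R, 0.0527 for STAT6 and 0.0520 for SOCS1.

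Of 13 promoters of type 2 response genes, 4 were higher with IL-13 and 1 higher with IL-1β, with a median difference of 0.02. CCL11 (eotaxin, which attracts eosinophils) was at 17.8, 10.8, 15.4 and 15.6 with IL-13 and at 2.17, 1.75, 2.50 and 2.43 with IL-1β, against 7.75 at rest (difference 2.49, SE 0.24, limma adjusted p = 2.59e-19). IL-13 raised it by 0.92 and IL-1β lowered it by 1.57 against unstimulated cells. The matrix protein periostin (POSTN, 1.34), the chemokine CCL13 (1.13) and tenascin (TNC, 0.52) also passed the test, each losing the call under at least 1 other processing. DPP4, a cell-surface peptidase, was higher with IL-1β (-1.09). IL-13 lowered DPP4 by 0.87 against unstimulated cells, while IL-1β did not pass that test (0.22). The eotaxin genes CCL24 and CCL26 had promoter peaks that did not pass.

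Chemokines were the list with the largest share on the side of IL-1β. Of 14 promoters, 7 were higher with IL-1β and 0 higher with IL-13 (0 also at an unadjusted limma p under 0.05), with a median difference of -0.66. These were the neutrophil chemokines CXCL8 (-3.90), CXCL1 (-1.04), CXCL5 (-0.84), CXCL6 (-0.80), CXCL3 (-0.76) and CXCL2 (-0.56), and CXCL10 (-1.68), which attracts T cells. CXCL1, CXCL2 and CXCL3 are close copies whose reads can be hard to place, and CXCL5 and CXCL6 lost the call under at least 1 other processing. Counting all assigned peaks, 74 of 325 at these genes were higher with IL-1β (22.8%) and 7 higher with IL-13, including 22 of 44 at CXCL8 and 9 of 30 at CCL2, whose own promoter peak was not called.

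Of 11 promoters of cytokine genes, 4 were higher with IL-1β and 0 higher with IL-13 (0 also at an unadjusted limma p under 0.05), with a median of -0.30. IL33, a nuclear alarmin, was at 1.36, 1.46, 0.484 and 1.42 with IL-13 and at 11.1, 12.3, 11.6 and 11.4 with IL-1β, against 3.41 at rest (chr9:6214367-6214867, 1.2 kb upstream of the start, difference -2.90, SE 0.25, limma adjusted p = 1.86e-22). IL1B itself was at 3.14 ± 0.677 and 8.28 ± 1.70, against 6.08 at rest (SD, n = 4, difference -1.26, limma adjusted p = 4.66e-06). IL-13 lowered IL1B by 0.86 against unstimulated cells, while IL-1β did not pass that test (0.40). LIF (-0.73) and IL32 (-0.76) also passed, IL32 not under all other processings. At the whole genes, 21 of 48 peaks of LIF, 15 of 34 of IL33, 9 of 17 of IL1B and 8 of 13 of CSF3 were higher with IL-1β. Of the 16 peaks of IL6, limma called 0 in either direction, and at an unadjusted p under 0.05 there were 2 higher with IL-13 and 1 higher with IL-1β.

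Matrix and contractile genes were on the other side. Of 17 promoters, 7 were higher with IL-13 and 1 higher with IL-1β, with a median of 0.28. TAGLN, an actin-binding protein of contractile cells, was at 74.5, 81.7, 75.5 and 77.8 with IL-13 and at 41.8, 38.4, 34.6 and 41.0 with IL-1β, against 55.8 at rest (difference 0.98, SE 0.08, limma adjusted p = 2.57e-24). Both cytokines moved it from rest, IL-13 upward by 0.47 and IL-1β downward by 0.51. The collagen cross-linking enzyme LOX (0.94), fibronectin (FN1, 0.92), the myosin light chain MYL9 (0.74) and the collagens COL3A1 (0.64), COL1A1 (0.59) and COL1A2 (0.55) were the others, of which COL3A1 and COL1A2 lost the call under at least 1 other processing. By all assigned peaks, 100 of 636 (15.7%) were higher with IL-13 and 25 higher with IL-1β, including 21 of 29 at COL1A1 and 13 of 18 at TAGLN.

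The exception was COL7A1, the collagen of anchoring fibrils. Its promoter peak (chr3:48595418-48595918, 0.3 kb upstream of the start) was at 18.6, 18.8, 17.4 and 15.9 with IL-13 and at 54.6, 49.97, 52.5 and 60.6 with IL-1β. With 30.2 at rest, IL-1β raised it by 0.84 and IL-13 lowered it by 0.76 (direct difference -1.60, SE 0.11, limma adjusted p = 2.5e-34). The peak holds 2 AP-1 strings, shown above, and 3 NF-κB matches outside the stretch shown.

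Of 8 promoters of metalloproteinases and their inhibitors, 3 were higher with IL-1β and 1 higher with IL-13, with a median of -0.25. The enzymes MMP9 (-1.42), MMP1 (-1.20) and MMP10 (-1.03) were higher with IL-1β, MMP9 not under all other processings. Against unstimulated cells, IL-13 lowered MMP1 by 0.74 and IL-1β did not pass (0.46). IL-1β raised MMP10 by 0.87 and IL-13 did not pass (-0.16). For MMP9 neither passed (-0.38 with IL-13 and 1.04 with IL-1β). The inhibitor TIMP3 was higher with IL-13, at 16.1 ± 1.74 against 6.78 ± 0.629 (SD, n = 4, difference 1.18, limma adjusted p = 3.21e-08). IL-13 raised it by 1.21 against unstimulated cells, and IL-1β did not differ from them at the threshold (0.03).

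In the prostaglandin pathway 1 of 11 promoters was higher with IL-13 and 0 higher with IL-1β (1 at an unadjusted limma p under 0.05), with a median of -0.06. The 1 was PTGIS, which makes prostacyclin, at 7.29 ± 1.65 against 1.59 ± 1.00 (SD, n = 4, difference 2.01, limma adjusted p = 1.17e-10), and IL-1β lowered it from rest (limma adjusted p = 9.9e-06). PTGS2 had 14 of its 24 assigned peaks higher with IL-1β. Signalling components of the inflammatory pathway were read by promoters and by all assigned peaks. For comparison, 4.93% of the promoter peaks of all genes were higher with IL-13 and 2.89% higher with IL-1β. Over all tested peaks these shares were 3.72% and 4.54%. Of 18 NF-κB subunits and feedback inhibitors 1 was higher with IL-1β (BIRC3, -0.90, an inhibitor of apoptosis) and 0 higher with IL-13 (2 at an unadjusted limma p under 0.05), with a median of -0.09, while over all assigned peaks 52 of 579 (8.98%) were higher with IL-1β and 13 higher with IL-13. Of 11 IL-1 receptor components 1 was higher with IL-13 (the kinase MAP3K7, 0.50, not under all other processings) and 0 higher with IL-1β (0 also at an unadjusted limma p under 0.05), with a median of 0.08, while over all assigned peaks 39 of 401 (9.73%) were higher with IL-1β and 13 higher with IL-13. Of 15 AP-1 and C/EBP factors 2 were higher with IL-13 (FOSL2, 0.87, and JUNB, 0.40, the latter not under all other processings) and 0 higher with IL-1β (1 at an unadjusted limma p under 0.05), with a median of 0.02. Over all assigned peaks of these factors, 26 of 383 (6.79%) were higher with IL-1β and 20 (5.22%) higher with IL-13. Of 5 leukocyte adhesion and checkpoint genes 0 passed in either direction, with a median of 0.10, and at an unadjusted limma p under 0.05 there were 2 higher with IL-13 (VCAM1 and PDCD1LG2) and 0 higher with IL-1β.

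**Figure D4:**
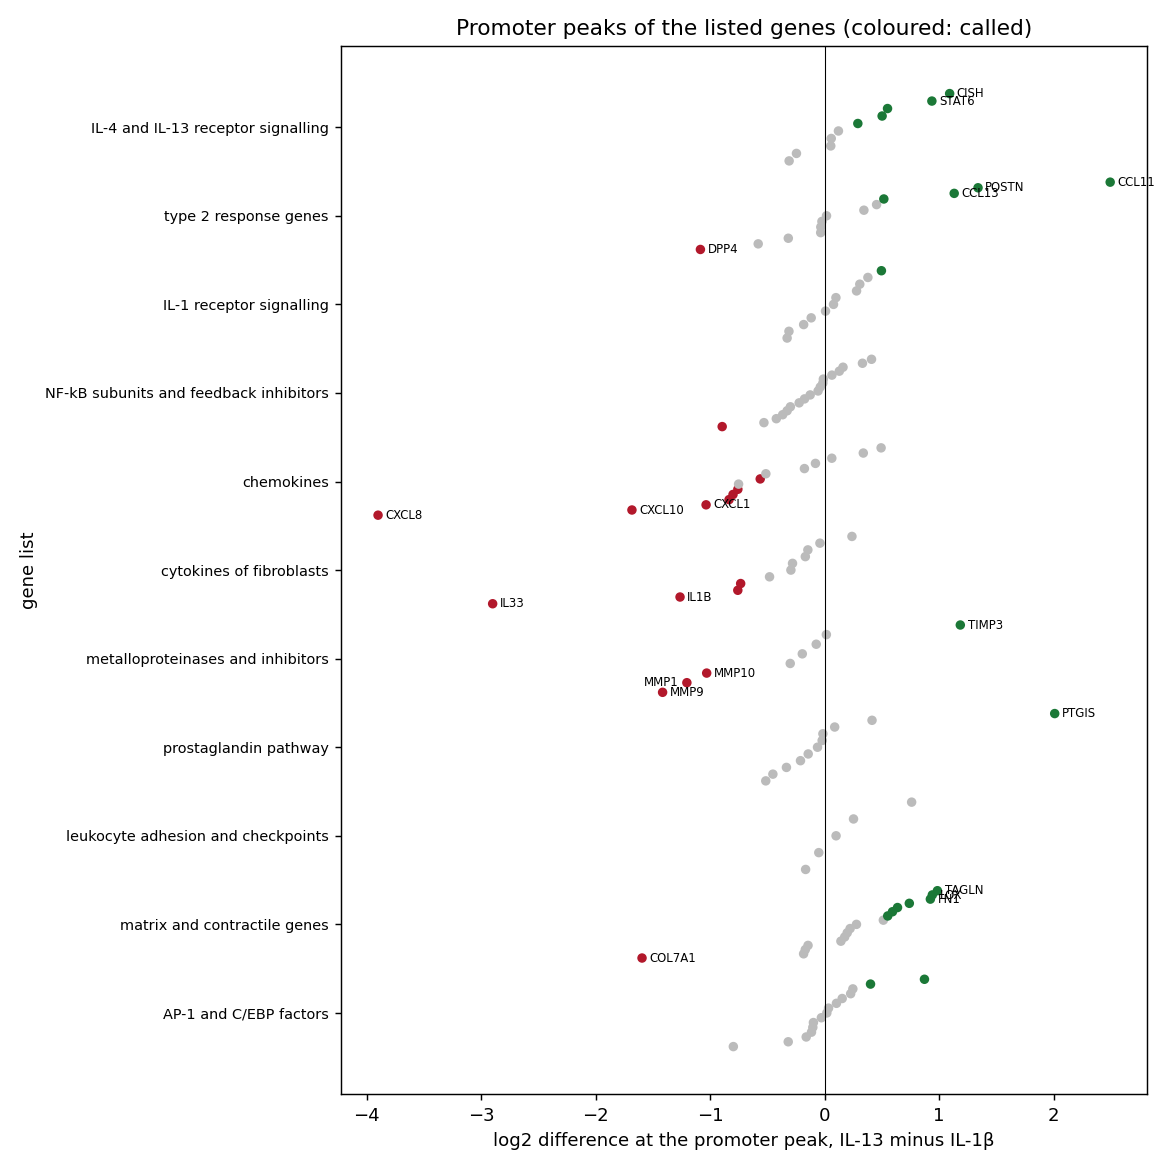
log2 difference (IL-13 minus IL-1β, x axis) at the promoter peak of each listed gene, by list, with called peaks in green (higher with IL-13) or red (higher with IL-1β) and the rest in grey. Chemokines reach -3.90 at CXCL8 with no green point, and matrix and contractile genes reach 0.98 at TAGLN with COL7A1 the only red point.

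The genes with the most peaks higher with IL-13 were matrix and cytoskeletal genes. THBS1 (thrombospondin) had 41 of 132 assigned peaks, COL6A3 had 40 of 142, the tropomyosin TPM1 had 37 of 63 (58.7%), COL6A1 had 33 of 70 and CDC42EP3, a regulator of septins and actin, had 32 of 108. The THBS1 peak with the lowest adjusted p, in an intron (chr15:39587354-39587854), was at 21.9, 22.0, 32.3 and 27.9 with IL-13 and at 3.36, 2.72, 6.12 and 3.19 with IL-1β, against 15.0 at rest (difference 2.65, SE 0.16, limma adjusted p = 3.83e-38). It was raised by IL-13 (0.79) and lowered by IL-1β (-1.86). In the CDC42EP3 peak with the lowest adjusted p, IL-13 did not differ from rest at the threshold (-0.31) and IL-1β lowered it by 1.75.

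The genes with the most peaks higher with IL-1β were WTAP with 33 of 186 assigned peaks, NRG1-IT3 with 27 of 92, NAMPT with 26 of 127, PHLDA1 with 26 of 115 and the bradykinin receptor BDKRB1 with 25 of 57. The WTAP peak with the lowest adjusted p lay in an intron of SOD2, the mitochondrial superoxide dismutase next to WTAP. It was at 9.49 ± 2.57 with IL-13 and 22.6 ± 0.728 with IL-1β (SD, n = 4, difference -1.24, limma adjusted p = 3.96e-12). The NRG1-IT3 peak with the lowest adjusted p lay in an intron of NRG1, an epidermal growth factor family ligand. It was at 4.06 ± 1.43 and 25.6 ± 0.534 (SD, n = 4, difference -2.57, limma adjusted p = 7.05e-29), moved in opposite directions from 10.2 at rest. The BDKRB1 peak was lowered by 1.89 from rest by IL-13, while IL-1β did not pass that test (0.65).

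Around single start sites the called peaks lay in runs. Within 60 kb of the start of THBS1, 34 of 68 tested peaks were higher with IL-13 and 0 higher with IL-1β. Around SOCS1 13 of 72 were higher with IL-13 and 1 higher with IL-1β. The peak with the lowest adjusted p among those assigned to RMI2, a gene chosen after its values were seen, lay in an intron of RMI2 (chr16:11250423-11250923) and was at 22.1, 22.2, 25.9 and 27.5 with IL-13 and at 3.34, 2.48, 3.03 and 1.63 with IL-1β. It was at 2.98 at rest, and IL-13 raised it by 2.91 (difference 3.03, SE 0.26, limma adjusted p = 6.23e-23). Around CXCL8 22 of 44 were higher with IL-1β and 1 higher with IL-13, and around PTGS2 15 of 28 and 0.

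**Figure D5:**
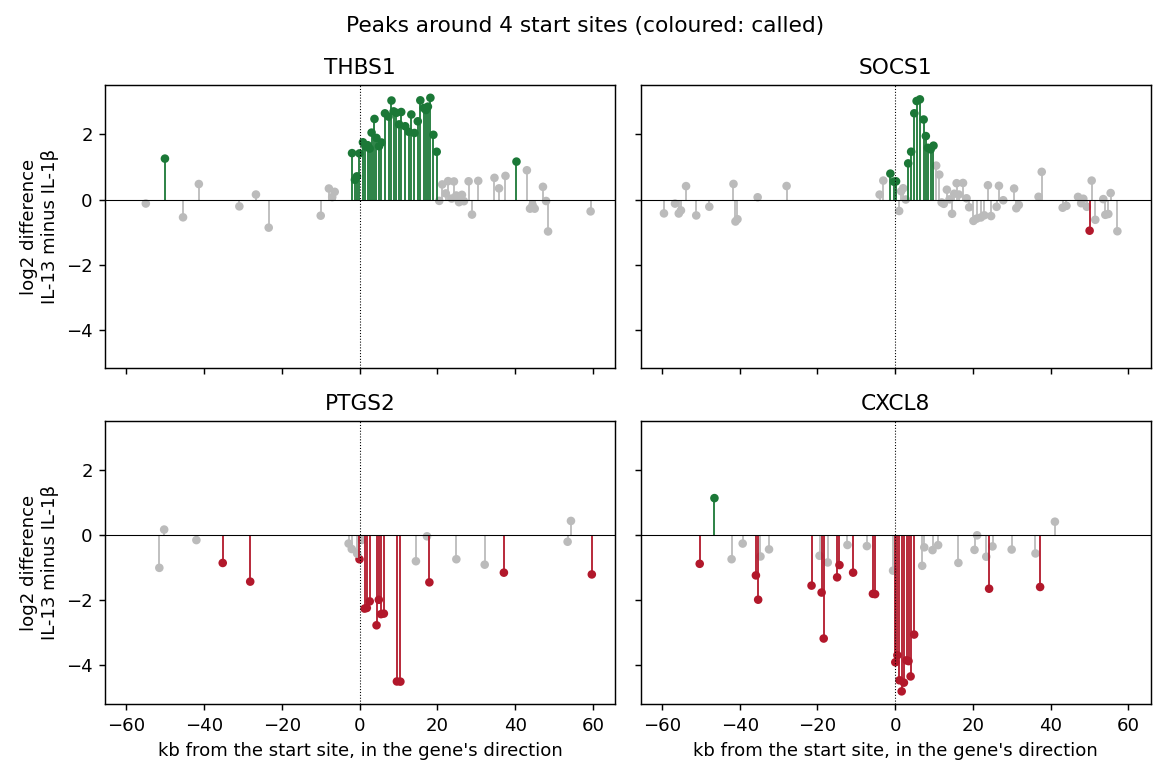
log2 difference (IL-13 minus IL-1β, y axis) of every tested peak within 60 kb of the start site of THBS1, SOCS1, PTGS2 and CXCL8, by distance in kb in the gene's direction (x axis), with called peaks in green (higher with IL-13) or red (higher with IL-1β). Most of the 34 called THBS1 peaks follow the start site closely, the called SOCS1 peaks lie mostly after it, and the red CXCL8 peaks lie on both sides with the largest just after the start.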

How the data were processed

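ATAC-seq libraries of Ccd18-Co cells were prepared and sequenced by the authors, who aligned reads to hg38 in the ENCODE pipeline. The values deposited are an unscaled signal: for each of 407383 peaks of 500 bases, the summed per-base read coverage, and each column was matched to its library by the library number in the labels (0 columns unmatched). Such coverage is not a count of reads, so the count model of the study was replaced. The methods describe bulk MACS2 peaks merged to varying lengths and annotated with ChIPseeker, and fixed-width peaks from single-cell ATAC-seq of tissue merged in ArchR. All deposited peaks have 1 width, and which set they came from is not given in the sources used here, so regions open only in these cells may be left out. Each value was divided by total coverage of its library and by a composition factor (trimmed mean of log ratios), 0.5 was added, and log2 values were fitted with limma 3.58.1 in R 4.3.3 (group means of 44 libraries in 11 groups, empirical Bayes with a mean trend) after removing 207 peaks of very low mean. The contrasts were IL-13 minus IL-1β and each minus unstimulated, with Benjamini-Hochberg adjustment over 407176 peaks. Promoter calls were read from the same fit, and measures of libraries were compared by exact permutation tests.

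The members, gene lists and tests were chosen with earlier results of these data known. Named were the 10 called peaks with the largest difference in each direction (mean of at least 1 per Mb, groups not overlapping, 1 for each gene), listed genes with a called promoter peak (the promoter-class peak of the gene with the highest mean), and the 5 genes with the most called peaks in each direction, each shown by its peak with the lowest adjusted p. Further peaks are named as chosen after their values were seen, or as values only. Coordinates are as deposited. Strings were searched on both strands of each peak in the hg38 sequence, and overlapping matches to different strings were allowed. Genes, introns and start sites around peaks are from GENCODE. Total coverage ranged from 239.8 to 656.1 Mb with IL-13 and from 329.7 to 519.8 Mb with IL-1β. Depth in reads is known only through coverage, and no counting intervals were made.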

Additional observations from a re-analysis of the deposited data

Results flagged for a closer look

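In 48 groups of 4 libraries tested with Dixon's criterion, 2 held a library far from the others, where chance gives about 1 in 20. In the WASF3 peak, 1 IL-13 library was at 23.2 coverage per Mb, above the other 3 at 15.9 to 16.8. In the CXCL8 exonic peak, 1 IL-13 library was at 0.224 and the other 3 at 0. Both peaks had been chosen among called peaks whose groups did not overlap, so the separation of their groups was fixed by that choice. The calls held under all 21 alternatives.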

How the results depend on the processing

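Over 21 alternatives (other scalings, pseudocounts of 0.1 and 2, filters, array weights, other sets of libraries, each replicate left out), the peaks higher with IL-13 numbered 12852 to 17705 and those higher with IL-1β 14907 to 20023, and 77.9% to 100% of the 33657 calls were shared. Leaving out 1 IL-13 or IL-1β library gave 12852 to 13691 and 14939 to 17786. Leaving out the fourth IL-6 library, the shallowest of the 44, gave 16235 and 20023. An adjusted p under 0.01 with a log2 difference of at least 0.5 left 9949 and 11657, by its construction. Correction for GC content gave 17493 and 14907, so that 54.0% of calls were higher with IL-13 instead of 45.0%, and the cause was not tested. Listed promoters called numbered 31 to 41 (38 as reported). Of 69 called named peaks, 54 kept the call in every alternative and 15 lost it in at least 1, and 0 reversed. The difference in total coverage of -33.7 Mb ranged from -118.8 to 20.02 Mb when 1 library was left out, the positive value without the second IL-13 library.

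Libraries with the same replicate number did not deviate together (correlations of 0.0254, 0.0203, 0.0018 and 0.0038), so the numbers do not pair them, and in the data not every library correlated best with its own number. With the replicate block 15276 and 18627 peaks were called, and with the block and GC correction 17705 and 15062.

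Coverage limits peaks near 0, where single reads set the value and the added 0.5 shrinks the difference. The differences carry dose as well as cytokine, the peaks' gene names are assignments by position, and the labels do not tell cultures from technical repeats.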
